A study of Macaca mulatta with 24 samples.

Results

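Fc receptors are the cell surface proteins through which blood cells bind the constant end of antibodies, and their transcripts were followed here in the blood of irradiated rhesus macaques. The genes were chosen by name: of 10 listed genes (FCGR1A, FCGR2A, FCGR2B, FCGR3, FCGR3A, FCER1G, FCER2, FCAR, FCRL1 and FCRL2), 8 named 11 of the 43603 non-control probes of the array. FCER2 was reached through its RefSeq gene ID, because its 2 probes carry a locus number in place of the symbol. FCGR3A has no probe under that name, and RefSeq lists it as a synonym of macaque FCGR3. That left 9 genes with 13 probes, all of which passed the filter on dim signals, among 27112 probes that did.

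Blood RNA came from Macaca mulatta of Chinese origin, males and females, before and after total body irradiation with 4 Gy, drawn into PAXgene tubes and depleted of globin transcripts. There were 7 pre-irradiation arrays, 4 from day 3, 6 from day 5 and 7 from day 7 after irradiation, and replicates 1 to 4 were male and 5 to 7 female. The labels name X-rays and place the control sample on day 0, while the study's methods name a cobalt gamma source and place the control days before exposure. The pre-irradiation samples are controls from the same irradiated animals and are shared by the comparisons of all 3 later time points, and no sham arm was analysed here. Levels are given as log2 signal, the log2 of the scanner's processed intensity after scaling to a median array, so that a step of 1 is a doubling. A probe was called where limma's adjusted p (Benjamini-Hochberg over all probes tested) was under 0.005.

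Fc receptors differ in the antibody class that they bind and in the signal that they pass on. The activating IgG receptors FCGR1A (CD64), FCGR2A (CD32A) and FCGR3 (CD16) are carried by monocytes, neutrophils or natural killer cells and drive phagocytosis and killing of antibody-coated targets. FCGR2B (CD32B) carries an inhibitory motif and restrains B cells and myeloid cells. FCER1G is the common gamma chain, an adaptor with an activating motif that brings several receptors to the surface. FCAR (CD89) binds IgA on myeloid cells, FCER2 (CD23) is the low-affinity IgE receptor of B cells, and FCRL1 and FCRL2 are Fc receptor-like proteins of the B-cell lineage.

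The array reads each gene through 60-base probes, and a few are shown because the results below depend on what they can tell apart. FCGR2A and FCGR2B are close relatives, and FCGR3 carried the largest rise at day 3. FCER2 is shown because its probes were not named for it. All are printed 5′ to 3′ as the array design gives them, in lower case throughout.
FCGR2A probe: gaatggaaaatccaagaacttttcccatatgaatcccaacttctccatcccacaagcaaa
FCGR2B probe: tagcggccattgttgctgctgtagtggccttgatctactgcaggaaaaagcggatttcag
FCGR3 probe: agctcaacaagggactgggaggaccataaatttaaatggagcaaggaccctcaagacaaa
FCER2 probe, brighter: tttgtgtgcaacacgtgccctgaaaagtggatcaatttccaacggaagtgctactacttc
FCER2 probe, dimmer: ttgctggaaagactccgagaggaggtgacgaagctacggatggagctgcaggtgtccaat

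On the rheMac2 build named in the file headers, these probes lie at chr1:140079944-140080003 (FCGR2A, plus strand), chr1:140184463-140184522 (FCGR2B, plus strand), chr1:140114035-140114094 (FCGR3, minus strand), and chr19:7653780-7653839 and chr19:7653844-7653903 (FCER2, minus strand). FCGR3 thus sits between FCGR2A and FCGR2B, 34.0 kb from the one probe and 70.4 kb from the other. FCER1G is 250 kb away from the FCGR2A probe on the same chromosome, and FCAR lies on chromosome 19. The FCGR2A probe is also annotated to 2 FCGR2B transcripts, so signal at FCGR2A cannot be assigned to one gene. Exon, intron and UTR positions of the probes were not analysed here.

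The arrays differed in ways that bear on these comparisons. Between 48.3% and 61.2% of probes were well above background (the scanner software's own flag), and no Fc receptor probe was saturated on any array. The header times fall into 2 scan sessions. All day 3 and day 5 arrays were scanned in session 2 together with 1 pre-irradiation array (replicate 5) and 1 day 7 array, and the other 6 pre-irradiation and 6 day 7 arrays in session 1. Session and time point are therefore nearly confounded at day 3 and day 5, and there a fit with session as a block rests on that single pre-irradiation array. Day 7 is split over the sessions as pre-irradiation is, so a session block cannot move a day 7 difference from pre-irradiation. The level on that pre-irradiation array lay within the range of the other 6 for 9 of the 9 genes. The share over all probes was not computed, and 1 array within a range does not measure a difference between sessions. In bulk blood, fewer cells of a type and less RNA per cell cannot be told apart.

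At day 3 the calls among the 9 genes were 2 higher and 2 lower, where 13.5% of all tested probes were called (5.44% higher, 8.05% lower). At day 5 again 2 were higher and 2 lower, against 16.8% of all probes (7.16% higher, 9.60% lower). At day 7 none was higher and 3 were lower, against 10.9% (3.60% higher, 7.29% lower). The unadjusted p was under 0.05 for 7, 9 and 6 of the 9 genes at days 3, 5 and 7, and for 46.6%, 45.6% and 39.5% of all probes tested. Their median difference from pre-irradiation was 1.31, 1.04 and 0.16 on the log2 scale, and that of all 11011 named genes tested was -0.006, -0.008 and -0.013. The higher calls were FCGR3 and FCER1G at day 3 and FCGR3 and FCGR2B at day 5. The lower calls were FCRL1 and FCRL2 on each day and FCER2 at day 7, while FCGR1A, FCGR2A and FCAR were called on none. FCRL2 passed the filter on dim signals only through 4 pre-irradiation arrays, the group where it is high, so its lower calls support nothing on their own, and the lower counts without it are 1, 1 and 2. Among the 6 genes well above background on all 24 arrays none was called lower on any of the 3 days. That filter leaves out FCER2, FCRL1 and FCRL2, as it does any gene that falls to background, so nothing about their falls can be read from it.

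**Figure D1:**
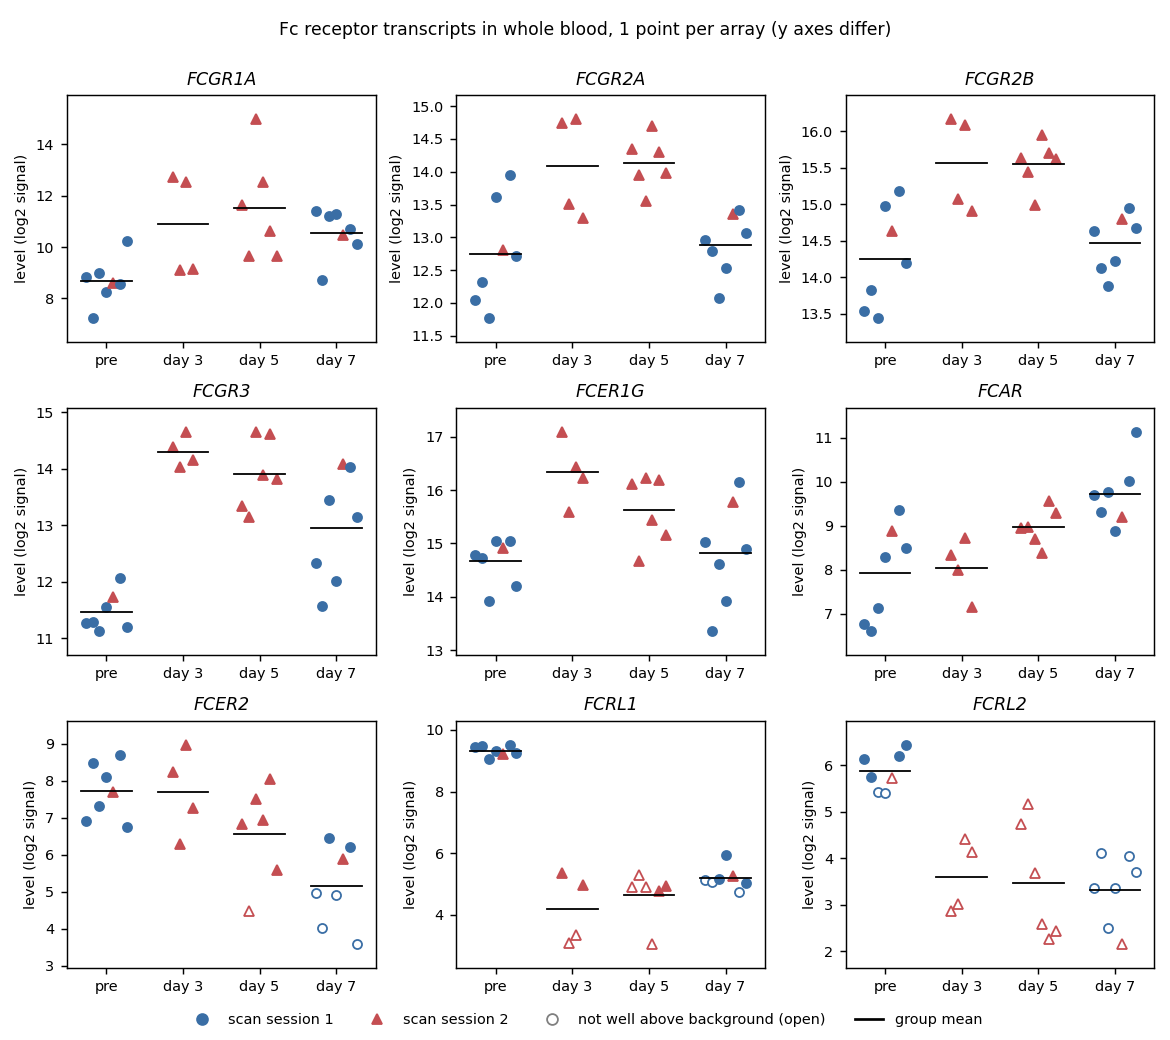
Log2 signal of the brightest probe of each gene on every array (y axis) by time point (x axis), with circles for scan session 1, triangles for session 2, open symbols for arrays where the probe was not well above background, and a line at each group mean. All 4 day 3 arrays and all 6 day 5 arrays of FCGR3 sit above the 7 pre-irradiation arrays, and all later arrays of FCRL1 sit below them.

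FCGR3, the low-affinity activating IgG receptor, showed the rise with the smallest adjusted p. Its log2 signal was 11.13 at the lowest, 11.29 at the median and 12.07 at the highest of the 7 pre-irradiation arrays. At day 3 the 4 arrays read 14.39, 14.02, 14.65 and 14.16. At day 5 the lowest, median and highest of 6 arrays were 13.14, 13.85 and 14.65, and at day 7, over 7 arrays, 11.57, 13.15 and 14.09. The groups did not overlap at day 3 or day 5, while 5 of 7 day 7 arrays were above every pre-irradiation array.

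The difference in FCGR3 was 2.84 (SE 0.21), or 7.17-fold, at day 3 (limma adjusted p = 9.83e-06) and 2.45 (SE 0.26), or 5.45-fold, at day 5 (limma adjusted p = 1.58e-05). At day 7 it was 1.49 (SE 0.37), or 2.80-fold, with a limma adjusted p of 0.00809, which misses the threshold, and it was called without replicate 2 (1.69, limma adjusted p = 0.00496) and in 1 fit of all 4 groups without a block (limma adjusted p = 0.00202), with slide as a random block (limma adjusted p = 0.00188) or with slide as a block (limma adjusted p = 0.00281). Taking each replicate number as 1 animal, FCGR3 was above its own pre-irradiation level in 4 of 4, 6 of 6 and 7 of 7 animals. The gain at day 3 ran from 2.73 to 3.12, a narrow band. By day 7 it ran from 0.28 in animal 2 to 2.36 in animal 5. With scan session as a block the estimate was 2.57 (SE 0.38, limma adjusted p = 0.00813) at day 3 and 2.18 (SE 0.52, limma adjusted p = 0.0252) at day 5, so that both calls were lost with sizes little changed. Normexp background correction, which lifts dim signals, left the day 3 call (2.56, limma adjusted p = 0.00437) and not the day 5 call (1.70, limma adjusted p = 0.0569). Within session 2 alone the same sizes had limma adjusted p of 0.0549 and 0.0913. Within session 1 the day 7 difference was 1.34 (SE 0.38).

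FCER1G, the gamma chain through which FCGR3 and FCGR1A signal, rose at day 3. The log2 signal was 13.93, 14.78 and 15.05 at the lowest, median and highest pre-irradiation array. The 4 day 3 arrays read 17.09, 15.59, 16.43 and 16.23, all above every pre-irradiation array. At day 5 the lowest, median and highest were 14.67, 15.77 and 16.23, where 5 of 6 arrays exceeded every pre-irradiation array, and at day 7 they were 13.36, 14.89 and 16.15, with 2 of 7 above and 2 below. The spread at day 7 (SD 0.98, n = 7) thus covered the pre-irradiation levels on both sides.

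For FCER1G the difference was 1.67 (SE 0.30), or 3.17-fold, at day 3 (limma adjusted p = 0.00171), 0.96 (SE 0.28) at day 5 (limma adjusted p = 0.0172) and 0.16 (SE 0.37) at day 7 (limma adjusted p = 0.79). The day 3 call did not hold with the animal as a block (1.64, limma adjusted p = 0.0107) or with scan session as a block (1.42, limma adjusted p = 0.164) or under normexp (1.61, limma adjusted p = 0.067). It was also lost without replicate 1 (1.43, limma adjusted p = 0.0101), replicate 4 (1.70, limma adjusted p = 0.0107) or replicate 7 (1.63, limma adjusted p = 0.00846). Within session 2 the day 3 difference was 1.42 (SE 0.58). Animal 2 was the lowest of the set on every day, from 0.85 above its own pre-irradiation level at day 3 to -1.37 at day 7.

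FCGR1A, the high-affinity IgG receptor, varied widely between animals. The pre-irradiation arrays ran from 7.24 through a median of 8.62 to 10.22. The day 3 arrays read 12.73, 9.12, 12.54 and 9.15, which is 2 high and 2 low. At day 5 the 6 arrays ran from 9.64 through 11.14 to 14.98, the highest being replicate 3, and at day 7 from 8.71 through 10.69 to 11.40. Every later group overlapped the pre-irradiation arrays, with 2 of 4, 4 of 6 and 5 of 7 arrays above all of them.

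The difference in FCGR1A was 2.22 (SE 0.76) at day 3, 2.85 (SE 0.76) at day 5 and 1.88 (SE 0.45) at day 7, with limma adjusted p of 0.039, 0.0101 and 0.00627, and none was called. Leaving out 1 replicate moved the day 3 value to between 1.595 (without replicate 4) and 3.05 (without replicate 7) and the day 5 value to between 2.21 (without replicate 3) and 3.48 (without replicate 7). At day 7 it was called under 6 of 21 other settings, among them the animal as a block (SE 0.33, limma adjusted p = 0.00299). It was also called without replicate 2 (1.95, limma adjusted p = 0.00141) and without replicate 7 (2.21, limma adjusted p = 0.00387). Animal 7 started highest and was below its own pre-irradiation level at day 3 (-1.07), day 5 (-0.58) and day 7 (-0.10), while the other animals were above theirs. With scan session as a block the differences were 2.27 (SE 1.41), 2.90 (SE 1.54) and 1.88 (SE 0.46), and within session 1 the day 7 difference was 1.89 (SE 0.52). Interferon-stimulated genes, a group to which FCGR1A is often counted, had a median difference of 1.41, 1.65 and 0.44 over 12 genes at days 3, 5 and 7, and none of them was called. Their mean level ran from 10.24 to 13.76 over the day 5 arrays and from 9.93 to 11.79 before irradiation, and their part in the FCGR1A values was not tested.

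FCGR2A, an activating IgG receptor of phagocytes, read 11.77, 12.71 and 13.94 at the lowest, median and highest pre-irradiation array. The day 3 arrays read 14.75, 13.52, 14.80 and 13.29, the day 5 arrays ran from 13.56 through 14.14 to 14.69, and the day 7 arrays from 12.07 through 12.95 to 13.42. The day 3 and day 5 arrays lay high but overlapped the highest pre-irradiation arrays, and day 7 lay within their range. The difference was 1.34 (SE 0.45), 1.39 (SE 0.33) and 0.14 (SE 0.33), with limma adjusted p of 0.0357, 0.00541 and 0.789. The day 5 value lay just outside the threshold and was called under 9 of 21 other settings, among them the animal as a block (1.40, limma adjusted p = 0.00332). It was also called without replicate 6 (1.56, limma adjusted p = 0.00325) and under 75th percentile scaling (1.41, limma adjusted p = 0.00478). It was 1.33 (SE 0.67, limma adjusted p = 0.269) with scan session as a block and 0.85 (limma adjusted p = 0.359) under normexp.

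FCGR2B, the inhibitory receptor, followed FCGR2A closely. Its pre-irradiation arrays read 13.44, 14.19 and 15.18 at the lowest, median and highest. The day 3 arrays read 16.16, 15.07, 16.09 and 14.91, the day 5 arrays ran from 14.99 through 15.62 to 15.95, and the day 7 arrays from 13.88 through 14.63 to 14.95. In 4 of 4 animals at day 3 and 6 of 6 at day 5 the level was above the animal's own pre-irradiation value, and in 5 of 7 at day 7.

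The difference in FCGR2B was 1.31 (SE 0.39) at day 3 (limma adjusted p = 0.0219), 1.30 (SE 0.29), or 2.46-fold, at day 5 (limma adjusted p = 0.00363, called) and 0.22 (SE 0.29) at day 7 (limma adjusted p = 0.611). At day 5, 5 of 6 arrays were above all pre-irradiation arrays. The day 5 call was lost without replicate 1 (1.16, limma adjusted p = 0.0173), 2 (1.25, limma adjusted p = 0.0156), 3 (1.28, limma adjusted p = 0.00607), 4 (1.34, limma adjusted p = 0.00621) or 7 (1.28, limma adjusted p = 0.0157), and with scan session as a block (0.93, SE 0.57, limma adjusted p = 0.376) or under normexp (0.68, limma adjusted p = 0.41). Within session 2 the day 5 difference was 0.93 (SE 0.37), and within session 1 the day 7 difference was 0.22 (SE 0.32). A further probe, described in the files as a low affinity IgG receptor II-a precursor but sharing RefSeq accessions with FCGR2B, was kept out of the gene set. It differed from pre-irradiation by 0.75 (SE 0.33), 0.76 (SE 0.23) and -0.37 (SE 0.30) at days 3, 5 and 7 and was not called on any of the 3 days.

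**Figure D2:**
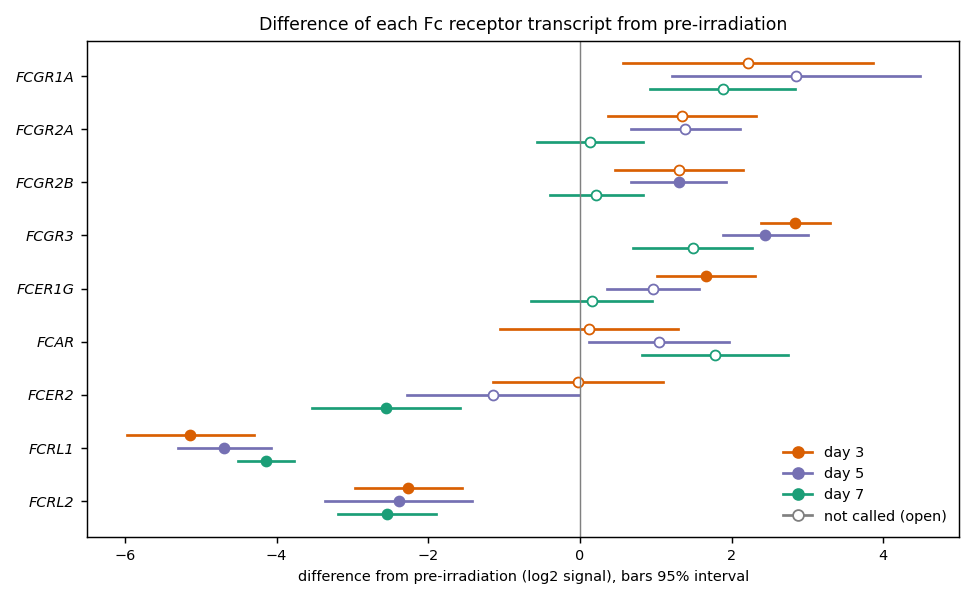
Difference of each gene's brightest probe from pre-irradiation (x axis, log2 signal) at days 3, 5 and 7, with bars for the 95% interval of the limma fit and filled circles for differences that were called. FCGR3 lies furthest to the right among the called differences (2.84 at day 3) and FCRL1 furthest to the left (-5.14 as measured at day 3). The order of the FCRL1 days cannot be read, as its probe was not well above background on every later array. FCER2 moves from -0.02 at day 3 to -2.56 at day 7.

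FCAR, the IgA receptor, had another time course. The 7 pre-irradiation arrays of its brightest probe ran from 6.62 through a median of 8.29 to 9.35, the 3 lowest being replicates 1, 2 and 3. The day 3 arrays read 8.33, 8.00, 8.73 and 7.15, all within that range. At day 5 the 6 arrays ran from 8.39 through 8.97 to 9.57, and at day 7 the 7 arrays ran from 8.87 through 9.71 to 11.13. In 7 of 7 animals the day 7 level was above the animal's own pre-irradiation level, by 0.32 to 2.93.

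The difference in FCAR was 0.12 (SE 0.54), 1.04 (SE 0.43) and 1.78 (SE 0.45) at days 3, 5 and 7, with limma adjusted p of 0.882, 0.0745 and 0.00943, and none was called. The day 7 value was called in 1 fit of all 4 groups without a block (limma adjusted p = 0.00181), with slide as a random block (limma adjusted p = 0.00166) or with slide as a block (limma adjusted p = 0.00272). The other FCAR probes gave 1.30 (SE 0.38) and 1.45 (SE 0.46) at day 7. Against day 3, all 7 day 7 arrays of the brightest probe were higher than every day 3 array, by 1.66 (SE 0.41, limma adjusted p = 0.02). With scan session as a block the differences from pre-irradiation were -0.84 (SE 0.94), 0.09 (SE 0.81) and 1.78 (SE 0.47), and within session 1 the day 7 difference was 2.02 (SE 0.49). The sign at day 3 and the size at day 5 therefore changed with the session block, which rests there on 1 pre-irradiation array. Pre-irradiation and day 7 each had 6 arrays in session 1 and 1 in session 2. The block could thus not move the day 7 value.

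FCER2, the low-affinity IgE receptor, fell late. Its brighter probe read 6.74, 7.70 and 8.70 at the lowest, median and highest pre-irradiation array. The day 3 arrays read 8.24, 6.27, 8.96 and 7.26, on both sides of the pre-irradiation range. At day 5 the 6 arrays ran from 4.47 through 6.89 to 8.04, and at day 7 the 7 arrays from 3.59 through 4.97 to 6.44, all below every pre-irradiation array. The probe was well above background on 7 of 7 pre-irradiation, 4 of 4 day 3, 5 of 6 day 5 and 3 of 7 day 7 arrays.

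The FCER2 difference was -0.02 (SE 0.51) at day 3, -1.15 (SE 0.53) at day 5 and -2.56 (SE 0.46) at day 7, with limma adjusted p of 0.975, 0.105 and 0.000918. With each day 7 array raised to at least its lowest signal well above background, the mean level was 5.43 against 7.71 before irradiation. The second probe gave -1.85 (SE 0.38, limma adjusted p = 0.0025), where 6 of 7 arrays fell short of every pre-irradiation array. All 7 animals were lower at day 7 than before, by -0.88 (animal 3) to -4.47 (animal 2). Without replicate 2 the difference was -2.25 (limma adjusted p = 0.00537), which misses the threshold, and under normexp it was -0.83 (limma adjusted p = 0.264). Leaving out replicate 2 also moved the day 3 value to 0.58 and the day 5 value to -0.60 (limma adjusted p = 0.349). It was -2.56 (SE 0.47, limma adjusted p = 0.00127) with scan session as a block and -2.69 (SE 0.52, limma adjusted p = 0.00284) within session 1.

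FCRL1, which marks B cells from early stages on, fell on each of the 3 days. The pre-irradiation arrays of its brighter probe lay close together, at 9.05, 9.32 and 9.51 for the lowest, median and highest (SD 0.17, n = 7). The day 3 arrays read 5.36, 3.07, 3.35 and 4.96. The day 5 arrays ran from 3.06 through 4.89 to 5.28 and the day 7 arrays from 4.74 through 5.13 to 5.94. No later array reached the pre-irradiation range, and the probe was well above background on 2 of 4, 2 of 6 and 4 of 7 later arrays.

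The FCRL1 difference was -5.14 (SE 0.38), -4.69 (SE 0.29) and -4.14 (SE 0.17), with limma adjusted p of 1.01e-05, 9.53e-08 and 4.1e-09. These sizes rest in part on arrays where the probe was not well above background. With each later array raised to at least its lowest signal well above background, the mean levels were 5.08, 4.97 and 5.22 at days 3, 5 and 7 against 9.33 before irradiation, so that no order among the days can be read. With scan session as a block the difference was -5.03 (SE 0.71, limma adjusted p = 0.00749) at day 3, where the call was lost, and -4.58 (SE 0.58, limma adjusted p = 0.000789) at day 5. Within session 1 it was -4.17 (SE 0.20, limma adjusted p = 4.17e-07) at day 7, and within session 2 it was -5.03 (SE 0.95) at day 3 and -4.58 (SE 0.73) at day 5. Under normexp it shrank to -1.96 (limma adjusted p = 0.0104), -1.44 (limma adjusted p = 0.04) and -1.97 (limma adjusted p = 0.00287), called at day 7 only. The second FCRL1 probe was well above background on 4 of 7 arrays before irradiation and on no later array, so that it only gives bounds, set against the lowest signal well above background on each later array. By that measure it was at least 1.91-fold lower at day 3, 2.16-fold at day 5 and 2.63-fold at day 7. The pre-irradiation mean behind these values includes 3 arrays that were not well above background, and the probe passed the filter only through the other 4, so the bounds hold only as far as that mean does.

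FCRL2, a related B-cell gene, was measured near the limit of the array. Its probe read 5.40, 5.75 and 6.44 at the lowest, median and highest pre-irradiation array, was well above background on 4 of those 7, and was not well above background on any later array. The measured differences were -2.26 (SE 0.32), -2.39 (SE 0.45) and -2.55 (SE 0.30) at days 3, 5 and 7, with limma adjusted p of 0.00054, 0.0012 and 3.82e-05. By the same measure as for the second FCRL1 probe, FCRL2 was at least 2.13-fold, 2.40-fold and 2.90-fold lower, with the same limit, since 3 of its 7 pre-irradiation arrays were not well above background. All later arrays, 4 of 4, 6 of 6 and 7 of 7, were below every pre-irradiation array.

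The FCRL2 calls at day 3 and day 5 did not hold with the animal as a block (-2.33, limma adjusted p = 0.00896, and -2.42, limma adjusted p = 0.00526) or with scan session as a block (-2.12, limma adjusted p = 0.0769, and -2.25, limma adjusted p = 0.167). At day 5 the call was also lost without replicate 6 (-2.09, limma adjusted p = 0.00587) or replicate 7 (-2.09, limma adjusted p = 0.00738). At day 7 the difference was -2.38 (SE 0.29, limma adjusted p = 0.000157) within session 1. Under normexp the differences were -0.20 (limma adjusted p = 0.934), 0.20 (limma adjusted p = 0.754) and -0.58 (limma adjusted p = 0.6) at days 3, 5 and 7, so that no call held and the day 5 sign turned.

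Marker genes of other blood cells moved with several of these results. Of 8 B-cell markers tested, 8 were lower at day 3, 8 at day 5 and 7 at day 7, with median differences of -3.23, -3.62 and -3.58. Their mean level ran from 10.52 to 11.05 before irradiation, from 6.69 to 7.85 at day 3, from 6.69 to 7.40 at day 5 and from 6.80 to 7.84 at day 7. VPREB3, a surrogate light chain relative of B cells, was well above background on 7 of 7 pre-irradiation arrays and on no later array. It thus passed the filter on dim signals only through the group where it is high. The 8 markers include it, and its fall supports nothing on its own. CD79B, part of the B-cell antigen receptor, differed by -4.15, -4.35 and -3.75, and MS4A1 (CD20) by -3.76, -4.31 and -4.32. FCRL1 and FCRL2 were low on the same days as these markers, while FCER2 was at its pre-irradiation mean at day 3, when all 8 markers were already lower. The part of the B-cell markers in the FCRL1, FCRL2 and FCER2 values was not tested.

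**Figure D3:**
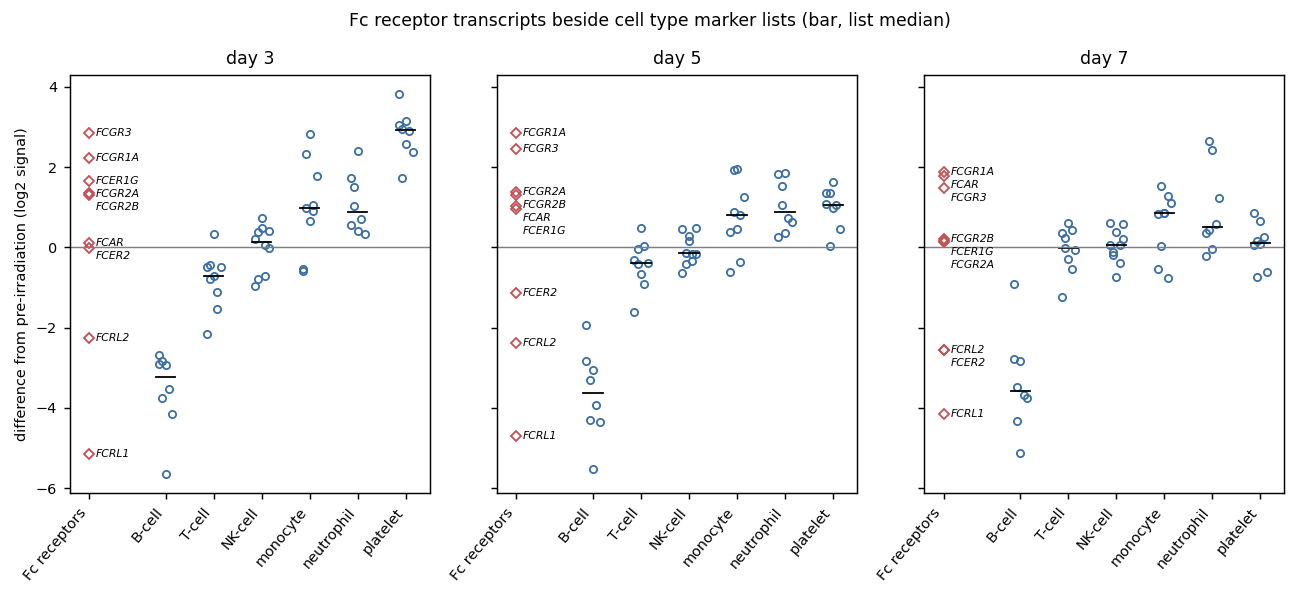
Difference from pre-irradiation (y axis, log2 signal) of the 9 Fc receptor genes (diamonds, named) and of the genes of 6 cell type marker lists (circles, with a bar at each list's median) at days 3, 5 and 7. The B-cell list has medians of -3.23, -3.62 and -3.58 and the monocyte list 0.97, 0.81 and 0.87, and FCER2 lies at -0.02, -1.15 and -2.56.

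On the myeloid side, 3 of 9 monocyte markers were higher at day 3, 3 at day 5 and 1 at day 7, with medians of 0.97, 0.81 and 0.87. MS4A7, a tetraspan protein of monocytes, differed by 2.83 at day 3 and 1.96 at day 5. CX3CR1, the fractalkine receptor, differed by 1.78 and 1.25 at days 3 and 5. The mean level of the 9 markers ran from 10.61 to 11.33 before irradiation and from 11.83 to 12.24 at day 3 and from 11.38 to 12.08 at day 5, neither overlapping the pre-irradiation range, and from 10.95 to 12.12 at day 7, which overlapped it. Of 8 neutrophil markers, 1 was higher on each day, with medians of 0.88, 0.89 and 0.50: CSF3R, the G-CSF receptor, by 1.72 and 1.82 at days 3 and 5, and S100A12, a calcium-binding protein of neutrophils, by 2.65 at day 7. Their mean level ran from 10.89 to 12.20 before irradiation, from 12.06 to 13.63 at day 3, from 11.87 to 13.42 at day 5 and from 11.53 to 13.42 at day 7. The part of these cells in the FCGR, FCER1G and FCAR values was not tested.

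None of 10 natural killer cell markers was called on any of the 3 days by limma, with medians of 0.14, -0.15 and 0.06. Their mean level ran from 11.81 to 12.41 before irradiation, from 11.31 to 12.58 at day 3 and from 11.48 to 12.47 at day 5, overlapping on both days. Natural killer cells also carry FCGR3, and their part in the FCGR3 values was not tested. Of 9 T-cell markers 2, 1 and 0 were lower (LEF1 by -1.54 at day 3, CCR7 by -2.15 and -1.61 at days 3 and 5), with medians of -0.70, -0.40 and -0.02. Platelet markers were higher in 8 of 8 at day 3 (median 2.93), 2 at day 5 and 0 at day 7, among them ITGA2B at 3.14 and PPBP at 3.06. GP1BA and ITGB3, both counted at day 3, were well above background on no pre-irradiation array and on 4 of 4 day 3 arrays. Both passed the filter only through later arrays, so their higher calls support nothing on their own. Red-cell markers were lower in 5, 6 and 6 of 6, with medians of -3.57, -6.08 and -4.87, in samples that had all been depleted of globin. Among them was ALAS2, the first enzyme of heme synthesis in red cells (-3.63, -8.06 and -4.96). SLC4A1, one of the 6, was well above background on 7 of 7 pre-irradiation arrays and on 1, 0 and 2 arrays at days 3, 5 and 7. It passed the filter only through the group where it is high, so its fall supports nothing on its own. Of 5 basophil and mast-cell markers 0, 1 and 1 were lower, with medians of -0.18, -1.28 and -1.54. Of 4 eosinophil markers 0, 1 and 1 were lower, with medians of 1.21, -0.56 and -0.98, the called gene being PRG3 at -1.43 and -2.35. The part of these cells in the FCER2 values was not tested.

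Of 17 other Fc receptors and Fc receptor-like genes listed, 9 were tested. At day 3 none was higher and 3 were lower, at day 5 it was 1 and 3, and at day 7 none and 3, with medians of -1.88, -1.61 and -1.40. FCRLA, an intracellular Fc receptor-like protein of B cells, differed by -4.13, -4.25 and -4.65. FCMR, the IgM receptor, differed by -2.18, -1.61 and -1.49. FCRL3 was lower at day 3 (-2.22, limma adjusted p = 0.00282). FCER1A, the IgE-binding chain of the high-affinity receptor of basophils and mast cells, differed by -1.97 at day 5 and -2.50 at day 7. FCER1A shares the gamma chain FCER1G with the IgG receptors, and FCER1G was higher at day 3 when FCER1A was at -1.88 (limma adjusted p = 0.00851). FCGRT, the neonatal receptor that recycles IgG, differed by 0.92, 0.59 and -0.18 and was not called by limma (adjusted p = 0.0196, 0.0514 and 0.607).

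The genes that carry the signal inward were taken as 2 lists. Of 24 tested genes of activating signaling, 6 were higher and 1 lower at day 3, 5 and 3 at day 5, and 0 and 2 at day 7, with medians of 0.45, 0.12 and 0.01. PIK3CB, a catalytic subunit of PI3-kinase, was higher by 1.59 at day 3 and 1.33 at day 5. The lower genes were BLNK, an adaptor of B cells (-3.26, -3.24 and -2.53), BTK, a kinase of B cells and myeloid cells (-3.31 at day 5 and -2.92 at day 7), and VAV2, an exchange factor (-1.10 at day 5). Of 9 genes of inhibitory signaling, 2 were higher at day 3, 2 at day 5 and 0 at day 7, with medians of 0.53, 0.15 and 0.11. INPP5D (SHIP1), the phosphatase recruited by FCGR2B, was higher by 0.80 at day 3 and 1.21 at day 5, and the adaptor DOK3 by 1.35 at day 3. The ubiquitin ligase CBL was called higher at day 5, with a probe well above background on no pre-irradiation array and on 3 of 6 day 5 arrays, so that it passed the filter only through later arrays and its call supports nothing on its own.

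NADPH oxidase makes the superoxide that follows uptake through Fc receptors. Of its 6 subunits 2 were higher at day 3, CYBB by 1.42 and CYBA by 1.24, which together form the membrane part of the enzyme. At day 5 none was called by limma, with a median of 0.71. At day 7 only NCF1, a cytosolic subunit, was called, at -1.23. Across all 11011 named genes tested, 656 were higher and 837 lower at day 3, 688 and 1010 at day 5, and 294 and 796 at day 7.

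**Figure D4:**
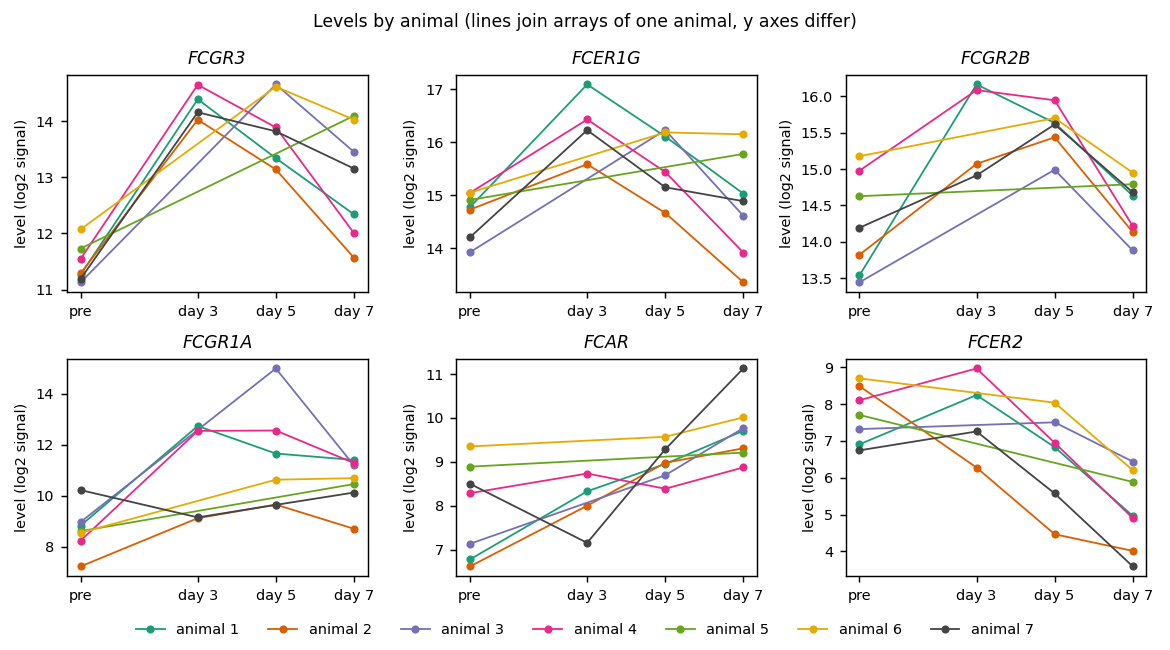
Log2 signal (y axis) of 6 genes on the arrays of each animal, taken as the replicate number, from pre-irradiation to day 7 (x axis), each line joining 1 animal. FCGR3 is above its own pre-irradiation level in all 7 animals at day 7, FCER2 is below it in all 7, and FCGR1A is below it in animal 7 at each of the 3 later days.

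Between the later time points none of the 9 genes was called by limma, where 0.0184% of probes were called for day 5 against day 3, 1.27% for day 7 against day 3 and 0.00369% for day 7 against day 5. The unadjusted p was under 0.05 for 1, 7 and 5 of the 9 genes, and for 10.1%, 32.7% and 20.8% of all probes. From day 5 to day 7 FCGR2A differed by -1.26 (SE 0.24) and FCGR2B by -1.08 (SE 0.21), each with a limma adjusted p of 0.0259 and with 7 of 7 day 7 arrays below every day 5 array. From day 3 to day 7 FCER2 differed by -2.54 (SE 0.62, limma adjusted p = 0.0191), FCER1G by -1.51 (SE 0.49, limma adjusted p = 0.0549) and FCGR3 by -1.36 (SE 0.47, limma adjusted p = 0.0672). With scan session as a block, day 7 against day 3 and day 5 rests on the 1 day 7 array of session 2, and again no gene was called.

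The day 7 response was compared between 4 males and 3 females. None of the 9 genes differed by limma's interaction test (adjusted p under 0.05), with 0% of all probes called and an unadjusted p under 0.05 for 8.69% of them. The values furthest apart were FCER1G, with 0.88 in females and -0.39 in males (difference 1.27, SE 0.60, limma adjusted p = 0.584), and FCGR3, with 2.09 in females and 1.03 in males (difference 1.06, SE 0.56, limma adjusted p = 0.596). FCGR1A and FCAR went the other way, FCGR1A with 1.29 in females and 2.32 in males (difference -1.03, SE 0.91, limma adjusted p = 0.762) and FCAR with 1.20 in females and 2.21 in males (difference -1.01, SE 0.66, limma adjusted p = 0.668).

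The genes closest to each called gene were found by the root-mean-square difference over the 24 arrays, after each gene's pre-irradiation mean was subtracted. FCGR2B was closest to FCGR2A, at 0.16, with a root-mean-square distance of its own from its pre-irradiation mean of 0.98. As the FCGR2A probe is also annotated to FCGR2B transcripts, it was not tested whether both probes read the same transcripts. FCER1G was closest to LTA4H (0.36), which makes leukotriene B4, RNASE6 (0.39), a ribonuclease of myeloid cells, and CTSB (0.42), a lysosomal protease, with 1.06 of its own. FCGR3 was closest to NECTIN4 (0.50), CD300H (0.51) and TMEM51 (0.54), with 1.96 of its own. FCRL1 was closest to CD79B (0.65), XKRX (0.82) and MS4A1 (0.83), with 3.90 of its own. FCRL2 had YOD1, EEF2 and LIPE (0.80 to 0.83) and FCER2 had GNA15 and PSD4 (0.81 and 0.93) among the nearest, with 2.18 and 1.79 of their own. All 24 arrays carry the shared steps between sessions and time points, so these distances describe likeness only.

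**Figure D5:**
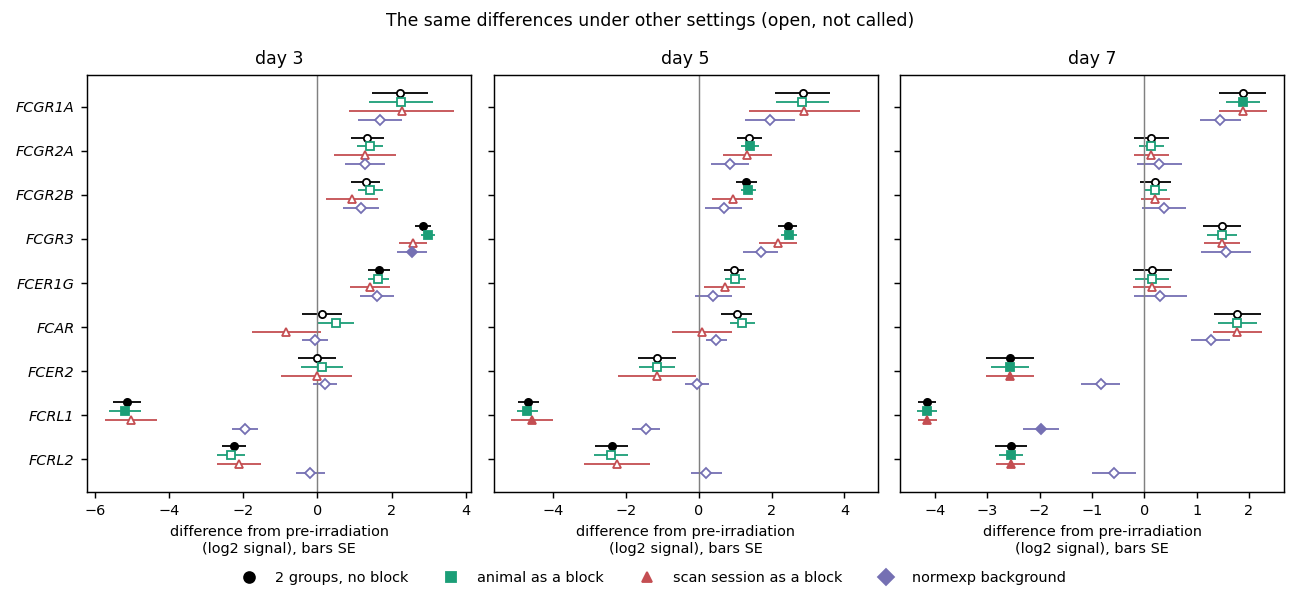
Difference from pre-irradiation (x axis, log2 signal, bars 1 SE) of the 9 genes at days 3, 5 and 7 without a block, with the animal as a block, with scan session as a block and with normexp background correction, filled where called. FCGR3 at day 3 stays between 2.56 and 2.98 under these 4 settings, while FCRL1 shrinks from -5.14 to -1.96 under normexp and FCRL2 from -2.26 to -0.20.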

How the data were processed

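Whole-blood RNA from 7 replicate numbers was hybridised to 24 one-colour Agilent rhesus arrays (6 slides). The deposited scanner files hold Cy3 intensity per spot, as processed by the authors with Feature Extraction (version 10.7 in the labels, 12.0.2.2 in the file headers). The study's methods name a human array, and the file headers a rhesus design with rheMac2 coordinates. The authors also deposited log2 values normalised to the median array, which served as an alternative. Outlier spots were dropped, log2 of the processed signal was taken, and each array was shifted to the array of middle median. The shift ran from -2.03 to 0.88 log2. A probe entered the tests if 4 or more of the 24 arrays had it well above background. Tests used limma 3.58.1 (R 4.3.3), each comparison fitted on its own groups, and adjusted by Benjamini-Hochberg. The main fits held no block, so that arrays of the same replicate number were treated as independent. A block for the animal was an alternative. A gene was represented by its brightest tested probe. Symbols came from the scanner files (23054 probes), RefSeq gene IDs (539) or RefSeq accessions (704), and 19306 probes have none. The code was tested on simulated data.

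The Fc receptor genes and gene lists were chosen with earlier results of these data known. The text names every Fc receptor gene with a probe, at most 3 called genes per list and day by size of change, with FCGRT and FCER1A at day 3 added after their values were seen, and the 3 genes most alike each called gene. A few genes that this rule names are not reported here. Samples were grouped by title. Arrays with the same replicate number deviated together (lowest correlation with the pre-irradiation array 0.134, 0.171 and 0.132 for days 3, 5 and 7, highest 0.415, 0.455 and 0.44, against medians of -0.053, -0.08 and -0.05 for different numbers), so the numbers were taken as animals, which the labels do not state. The number of arrays limits the precision. Alternatives covered scaling, background, filter, probe averaging, blocks for animal, slide and session, and leaving out each replicate.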

Additional observations from a re-analysis of the deposited data

Results flagged for a closer look

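Within the 36 sets of arrays of 1 gene and 1 time point, 2 held an array far from the rest of its group, and chance alone flags about 1 in 20. Both were FCRL1 in replicate 4. Its day 5 array read 3.06, with the nearest other at 4.78 and a gap of 0.777 of the group's range (6 arrays). The probe was not well above background on that array, and was so on only 2 of the 6, so that the gap has no sure size. Its day 7 array read 5.94, with the nearest other at 5.25 and a gap of 0.578 of the range (7 arrays). There the probe was well above background, as on 4 of the 7 arrays in all. The first lies below the other arrays of its day and the second above them, and both lie below every pre-irradiation array.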

How the results depend on the processing

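The comparisons of day 3 and day 5 with pre-irradiation depend most on how scan session, slide and background are treated. With scan session as a block, 0 genes were called at day 3 and 1 at day 5. With slide as a block it was 0 and 1, and within session 2, chosen after seeing the data, 0 and 0. With slide as a block in 1 fit of all 4 groups, also chosen after seeing the data, 1 was called at day 3, 0 at day 5 and 5 at day 7. With the replicate block, 2 genes were called at day 3 in place of 4. At day 5 it was 4, with FCRL2 lost and FCGR2A gained, and at day 7 4, with FCGR1A gained. Normexp background correction left 1, 0 and 1 called at days 3, 5 and 7, with 139, 239 and 317 of all probes called in place of 3656, 4542 and 2954, and turned FCRL2 at day 5 to 0.20; the cause was not tested. Keeping only probes well above background on all 24 arrays left 6 genes, of which 2 were called at day 3, 3 at day 5 (FCGR2A gained, 1.44) and 1 at day 7 (FCGR1A gained, 1.90), all higher. FCER2, FCRL1 and FCRL2 were no longer tested. In 1 fit of all 4 groups 5 genes were called at day 3 (FCGR2B gained), 5 at day 5 (FCGR2A gained) and 5 at day 7 (FCGR3 and FCAR gained). With slide as a random block the counts and the genes gained were the same. Leaving out 1 replicate gave 3 to 4 called at day 3, between 2 (without replicate 7) and 4 at day 5, from 3 up to 4 at day 7, and 0 between later days and for sex. Of all probes, 762 were called at day 3 with the replicate block, 37 at day 3 and 385 at day 5 with scan session as a block, and 0 and 443 with slide as a block, and leaving out 1 replicate left 864 (without replicate 4) to 3494 at day 3, 2717 (without replicate 1) to 4304 at day 5 and 1663 (without replicate 1) to 2578 at day 7. For day 7 against day 3 the 343 probes called became 2177 in 1 fit of all groups, and 0 with the replicate, slide or session block and without replicate 1. Quantile normalization called 4 higher and 2 lower at day 5, and 75th percentile scaling 3 and 2. Over the 27 gene and day values, 481 recomputed values kept their side of the threshold, 51 lost a call, 25 gained one and 1 reversed.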
